A study of Rattus norvegicus with 22 samples.

Results

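Filiform papillae are the cone-shaped, keratinised spines that cover the back of the rodent tongue, and their cells build hair-type keratins and other proteins that are otherwise known from the hair follicle. In the follicle, transcription factors of the matrix and precortex switch on the keratin genes, desmosomal cadherins hold the keratinising cells together, and trichohyalin, an intermediate filament-associated protein that arginine deiminases modify, stiffens the inner root sheath and medulla. The genes described here are 9 members of this program. They are the transcription factor genes Isl1, Msx2, Dlx3, Foxn1 and Hoxc13, the adhesion genes Dsg4 and Vsig8, Tchh, which encodes trichohyalin, and Padi3, which encodes a peptidyl arginine deiminase. They were looked up on the array by gene name and are described against Krt36, a type I hair keratin gene. Of the 9 genes, 8 were found under their own name, and Vsig8 was found through its RefSeq accession under the array name RGD1562464. Krt36 was likewise found by accession under its older name. The array holds 30367 probes for 19269 gene symbols. Msx2 has more than 1 probe, and for it the brightest over the 22 arrays was used. Isl1 and Dsg4 stand in the study's list of genes with the largest falls on these same samples and Krt36 in its list of keratins, so their direction is not independent evidence.

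Tongues came from 11 male F344 rats that drank the carcinogen 4-nitroquinoline-1-oxide (4-NQO), dosed at 20 ppm over 10 weeks. From each rat, an oral squamous cell carcinoma (OSCC) and a piece of neighbouring, phenotypically normal tissue were taken 23 to 26 weeks after first exposure, at an age of about 33 weeks. The deposited labels give the normal pieces no treatment and call all 22 arrays untreated, whereas the deposited protocol and the study's methods take both pieces from the same exposed rats, and that description is used here. The normal pieces are therefore from exposed tongues, and each is a piece of whole tongue with epithelium, muscle, nerve and vessels. RNA of each piece was measured on a one-color array, on which 48.4% to 56.1% of probes in normal tissue and 52.3% to 65.5% in OSCC were well above background. A level here is the log2 signal of a probe minus the 75th percentile of its array, so that 0 is that percentile. Levels of different probes are not compared with each other, because probes differ in brightness. The tissues of a rat were treated as a pair in limma, and a call required both 2-fold or more and an adjusted p under 0.05. All 11 normal arrays and 2 of the OSCC arrays (animals 4 and 9) were scanned on 1 day and 9 OSCC arrays on another, and no slide held both tissues.

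Of the 9 genes, 6 were lower in OSCC, 0 were higher and 3 were not called. On the whole array 13.8% of probes were called, of which those lower in OSCC made up 6.97% of all probes and those higher 6.86%. The genes called lower were Isl1, Msx2, Dlx3, Foxn1, Hoxc13 and Dsg4, and Tchh, Vsig8 and Padi3 were not called. Among the 5 transcription factor genes called, Hoxc13 was at background on all 22 arrays, and its call was lost when single pairs were left out and under several other settings. The median difference of the 9 genes, OSCC minus normal, was -1.52 on the log2 scale, against -0.24 over all probes. A normexp background correction left 3 genes called (Isl1, Msx2 and Dlx3) and called 3.34% of all probes lower. Among probes well above background on at least 11 arrays, which hold 5 of the 9 genes, 3 of the 5 were called lower (Msx2, Dlx3 and Foxn1), beside 10.4% of the probes tested. These are pieces of tissue, and fewer cells that express a gene and less RNA per cell cannot be told apart.

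**Figure D1:**
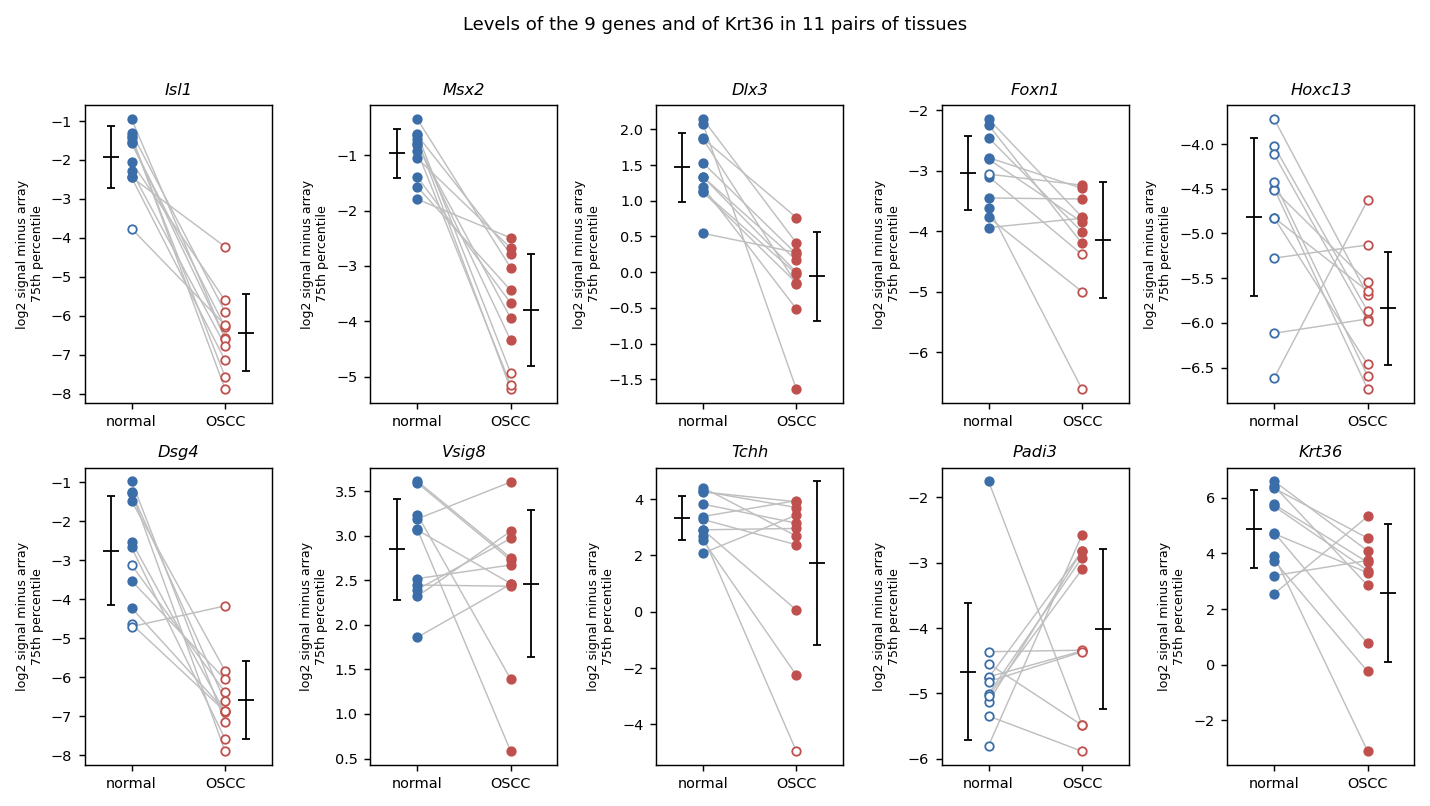
Each panel plots the level of 1 gene (log2 signal minus the array's 75th percentile) in the 11 normal pieces (blue) and the 11 OSCC pieces (red), with grey lines joining the tissues of a rat and black bars giving the mean and SD. Filled points were well above background and open points were not. Isl1 and Msx2 did not overlap between tissues, and Hoxc13 has open points throughout.

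Isl1 encodes a LIM homeodomain transcription factor that is best known from motor neurons and heart progenitors and is also made in tongue epithelium. Its level in normal tissue ran from -3.76 to -0.95 with a median of -1.57, and its mean was -1.92 ± 0.79 (SD, n = 11). In OSCC the lowest level was -7.89, the median -6.58 and the highest -4.23, with a mean of -6.44 ± 1.00 (SD, n = 11). Every OSCC piece lay below every normal piece. OSCC was lower in 11 of 11 pairs. Signal well above background was found in 10 normal pieces and 0 OSCC pieces, so the size of the fall is only bounded, and Isl1 was at least 6.02-fold lower (limma adjusted p = 5.97e-05). After normexp correction, which raises dim signals, the difference was -1.32 (adjusted p = 0.0384). The groups of 0.978% of all probes did not overlap with OSCC lower, and 5.26% of probes were lower in all 11 pairs.

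Msx2, a homeobox gene of the hair matrix that acts upstream of Foxn1 in the hair follicle, was also lower in 11 of 11 pairs. Its brightest probe, shown because the Msx2 result rests on it, ends in a stop codon. The probe is at chr17:17247696-17247755 (rn4, plus strand), 5′ to 3′, and capitals mark that codon.
Msx2 probe: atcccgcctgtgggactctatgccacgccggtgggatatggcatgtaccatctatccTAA
On it the level in normal tissue ran from -1.79 to -0.34 (median -0.81) and in OSCC from -5.23 to -2.49 (median -3.67). No OSCC piece reached the lowest normal piece. The mean difference was -2.83 with a standard error of 0.34, a 7.10-fold fall (limma adjusted p = 0.00022). The largest falls were -4.52 in animal 13, -4.33 in animal 21 and -4.23 in animal 24, and the OSCC pieces of these 3 were at background, so that their sizes and order are not measured. The smallest was -0.70 in animal 22. Its signal cleared background in all 11 normal pieces and in 8 OSCC pieces. The second Msx2 probe, at chr17:17248562-17248621, gave a difference of -3.17 (limma adjusted p = 0.000133) and no overlap either.

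Dlx3, a distal-less homeobox gene needed for hair shaft and root sheath differentiation, was well above background on all 22 arrays. Levels in normal tissue were between 0.54 and 2.14 with a median of 1.34. In OSCC they were between -1.64 and 0.76, and the median was 0.00. A single OSCC piece, that of animal 4, reached into the range of the normal ones, and OSCC was lower in 11 of 11 pairs. It differed by -1.52 on average with a standard error of 0.24, which is 2.88-fold (limma adjusted p = 0.000791). Animal 24 had the largest fall, -3.72, and without that pair the difference was -1.31.

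Foxn1, the gene mutated in nude mice and nude rats, encodes a forkhead factor of the hair precortex and of the thymic epithelium. Normal pieces ran from -3.94 to -2.15 (median -3.06) and OSCC pieces from -6.61 to -3.24 (median -3.85). The ranges overlapped. The lowest OSCC signals were those of animals 24 and 21. These pieces and that of animal 17 were at background, so their order is not measured. OSCC was lower in 10 of 11 pairs, with a mean difference of -1.11 and a standard error of 0.26, or 2.16-fold (limma adjusted p = 0.0065). Its signal cleared background in 10 normal and 8 OSCC pieces. Without the pair of animal 24 the difference was -0.92, short of 2-fold (adjusted p = 0.00673), and after normexp correction it was -0.28 (adjusted p = 0.829).

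Hoxc13 is a posterior Hox gene that directly regulates hair keratin genes and whose loss gives brittle hair. On none of the 22 arrays did its probe stand well above background. Levels ran from -6.62 to -3.72 (median -4.51) in normal tissue and from -6.74 to -4.63 (median -5.87) in OSCC, and OSCC was lower in 8 of 11 pairs. The mean difference was -1.03 with a standard error of 0.36 (limma adjusted p = 0.0379), and no fold is given for a signal at background in both tissues. The 8367 probes of this kind had a median difference of -0.55, and 1.33% of them were called lower and 0 higher. The Hoxc13 call was lost when any 1 of 7 pairs was left out (animals 4, 9, 13, 16, 17, 25 and 26, adjusted p from 0.064 to 0.0824), and after normexp correction the difference was -0.34 (adjusted p = 0.835).

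Dsg4 encodes desmoglein 4, the desmosomal cadherin of the hair cortex, which is mutated in rats and mice with lanceolate hair. Normal pieces had levels from -4.70 to -0.97 with a median of -2.67 and a mean of -2.76 ± 1.40 (SD, n = 11). OSCC pieces had levels from -7.89 to -4.17 with a median of -6.85 and a mean of -6.57 ± 1.00 (SD, n = 11). Animal 22 had both the lowest normal and the highest OSCC level, and it was the 1 pair in which OSCC was higher, by 0.53. In the other 10 pairs OSCC was lower. Dsg4 cleared background in 8 normal pieces and 0 OSCC pieces and was at least 3.39-fold lower (limma adjusted p = 0.000534). After normexp correction the difference was -1.03 (adjusted p = 0.0707).

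Vsig8, an immunoglobulin-domain membrane protein gene of hair cuticle and oral epithelium, was not called. Its level ran from 1.86 to 3.61 (median 3.06) in normal tissue and from 0.58 to 3.60 (median 2.67) in OSCC, well above background on all 22 arrays. OSCC was lower in 6 pairs and higher in 5. Its mean difference was -0.38 with a 95% confidence interval from -1.02 to 0.26 (limma adjusted p = 0.292), so a fall of more than 2-fold lies at the edge of what the interval allows. The lowest OSCC levels were those of animals 24 (0.58) and 16 (1.39).

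Tchh had levels from 2.08 to 4.41 (median 3.28) in normal tissue. In OSCC it ran from -4.95 to 3.95 with a median of 2.96, and the SD was 2.91 against 0.78 in normal tissue. In 8 OSCC pieces the level was at least 2.38 and within the range of normal tissue. In the other 3 it was 0.07 (animal 13), -2.25 (animal 21) and -4.95 (animal 24), and in the last of these Tchh was not well above background. Over 11 pairs Tchh differed by -1.60 with a standard error of 0.71 and a 95% confidence interval from -3.13 to -0.06 (limma adjusted p = 0.0802). It was past the threshold without the pair of animal 22, in which Tchh was 1.35 higher in OSCC (difference -1.89, adjusted p = 0.0474), and with arrays scaled to their median (difference -1.80, adjusted p = 0.0447). The difference without the pair of animal 24 was -0.99.

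In the pair of animal 24 the basal keratinocyte markers were also lower, with a median difference of -2.85 over the 6 on the array, and the 4 proliferation markers had a median difference of -3.03. The skeletal muscle markers of that pair had a median difference of 1.32, and those of animals 21 and 22 had 1.02 and 0.99. In animal 13 the basal markers had a median difference of 0.42 and the muscle markers -2.73. The basal markers of animal 21, where Tchh was also low, had a median difference of 0.17. Suprabasal markers had median differences of -0.41 in animal 24, 1.73 in animal 21 and -1.74 in animal 13, so these marker lists did not move alike in these pairs. Leukocyte markers (0.51, 1.64 and 2.73 in the same order) and gland markers (12.2, 5.46 and 6.21) were higher in each, as in every other pair. Most normal signal of the gland markers was at background, so the gland sizes are not measured. The part of tissue make-up in the Tchh levels was not tested.

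Padi3, whose enzyme converts arginine to citrulline in trichohyalin, was the 1 gene of the 9 with a positive mean difference. It was well above background on 1 normal array (animal 17) and on 6 OSCC arrays. Normal levels ran from -5.80 to -1.75 (median -4.82) and OSCC levels from -5.89 to -2.57 (median -4.34). Padi3 was higher in OSCC in 8 pairs, by up to 3.23 in animal 13, and lower in 3, by -3.73 in animal 17. In each of these pairs 1 piece was at background, so neither size is measured. The mean difference was 0.65 with a 95% confidence interval from -0.50 to 1.81 (limma adjusted p = 0.319). Without the pair of animal 17 it was 1.09 and Padi3 was called higher (adjusted p = 0.0401). All normal pieces left in that fit were at background, so the size is not measured.

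**Figure D2:**
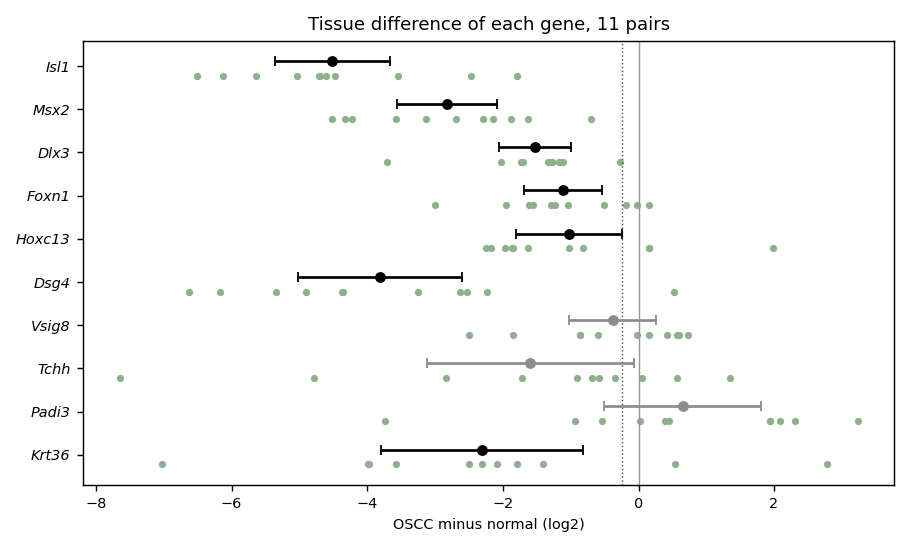
The plot gives, for each gene, the 11 pair differences (OSCC minus normal, log2; green points) and their limma mean with the 95% confidence interval (black where called, grey where not). The dotted line is the median over all probes, -0.24, and the solid line is 0. Isl1, Msx2 and Dlx3 lie wholly to the left of 0, and the pair differences of Tchh and Krt36 are the most spread out.

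Scan day moved with tissue in 9 pairs. With scan day as a further term, which leaves the pairs of animals 4 and 9 to carry the tissue difference, limma called 0 of the 9 genes and 3 probes on the whole array at the adjusted p. At an unadjusted p below 0.05 the same fit gave 4 of the 9 genes (Isl1, Dsg4, Msx2 and Dlx3) as lower, with differences of -2.42 for Msx2 and -1.42 for Dlx3, and it gave 25.2% of all probes as lower. All 6 called genes were lower in both pairs that were scanned within 1 day. A fit of those pairs alone called 6 of the 9 genes lower beside 33.6% of all probes lower. In it limma gave each of the 9 genes the same standard error, 0.42, so these calls do not weigh each gene's own spread between rats. In the 9 pairs that differ in scan day, 5 of the 9 genes were called lower beside 5.52% of all probes, and Hoxc13 was not (difference -0.89, limma adjusted p = 0.143).

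Krt36 itself, the hair keratin against which the 9 genes are described, is a structural keratin of filiform papillae. Its probe is shown because every comparison against Krt36 rests on it, and it lies at chr10:89041741-89041800 (rn4, minus strand), 5′ to 3′.
Krt36 probe: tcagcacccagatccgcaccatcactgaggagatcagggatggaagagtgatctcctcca
Levels ran from 2.55 to 6.60 (median 4.75) in normal tissue and from -3.11 to 5.33 (median 3.39) in OSCC, with overlap over most of the range. OSCC was lower in 9 pairs and higher in the pairs of animals 11 (0.54) and 22 (2.78). OSCC minus normal averaged -2.30 with a standard error of 0.69, a 4.93-fold fall (limma adjusted p = 0.0208). The call was lost with slide as a random block (adjusted p = 0.0565) and in the 9 pairs that differ in scan day (adjusted p = 0.0663).

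Subtracting the Krt36 level of the same array asks whether a gene changed more or less than Krt36 in the same pieces. Vsig8 stood 1.92 above the change of Krt36 on the log2 scale, in 10 of 11 pairs (limma adjusted p = 0.0364). Padi3 stood above the change of Krt36 in 9 of 11 pairs (limma adjusted p = 0.00306). Its signal cleared background in 1 normal piece and 6 OSCC pieces, so the size of its difference from Krt36 is not measured. An exact sign-flip test over the 11 pairs (two-sided, smallest possible p 0.000977) gave 0.0127 for Vsig8 and 0.0166 for Padi3, before adjustment. Of all other probes 73.1% differed from Krt36 by the same limma test, 73% above it and 0.115% below it, so the results for Vsig8 and Padi3 are what most probes gave. The spread in these fits is mostly that of Krt36, and limma gave each of the 9 genes the same standard error, 0.83. The Vsig8 call was lost without any 1 of animals 9, 13, 16, 17, 21 and 26.

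Isl1 was the third gene that passed, on the lower side (limma adjusted p = 0.0194). Its OSCC signal was at background in all 11 pieces, so the size of its difference from Krt36 is not measured. The Isl1 call was lost with the methods' t-test (adjusted p = 0.0713), and after normexp correction 0 of the 9 genes stood below Krt36 and 4 above it. The other 6 genes did not pass, and Dsg4 and Hoxc13, at background in OSCC, are given no size. The differences from the change of Krt36 were -0.53 for Msx2 (95% confidence interval -2.16 to 1.11), 0.71 for Tchh (-0.93 to 2.34), 0.78 for Dlx3 (-0.86 to 2.41) and 1.19 for Foxn1 (-0.44 to 2.82). These intervals are wide and include changes 2-fold apart from Krt36. For Msx2 the direction turned after normexp correction (0.84 above Krt36). Without animals 21, 22 and 24, which the study describes as variable, 5 genes passed, among them Tchh at 1.33 above Krt36 (adjusted p = 0.0278).

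**Figure D3:**
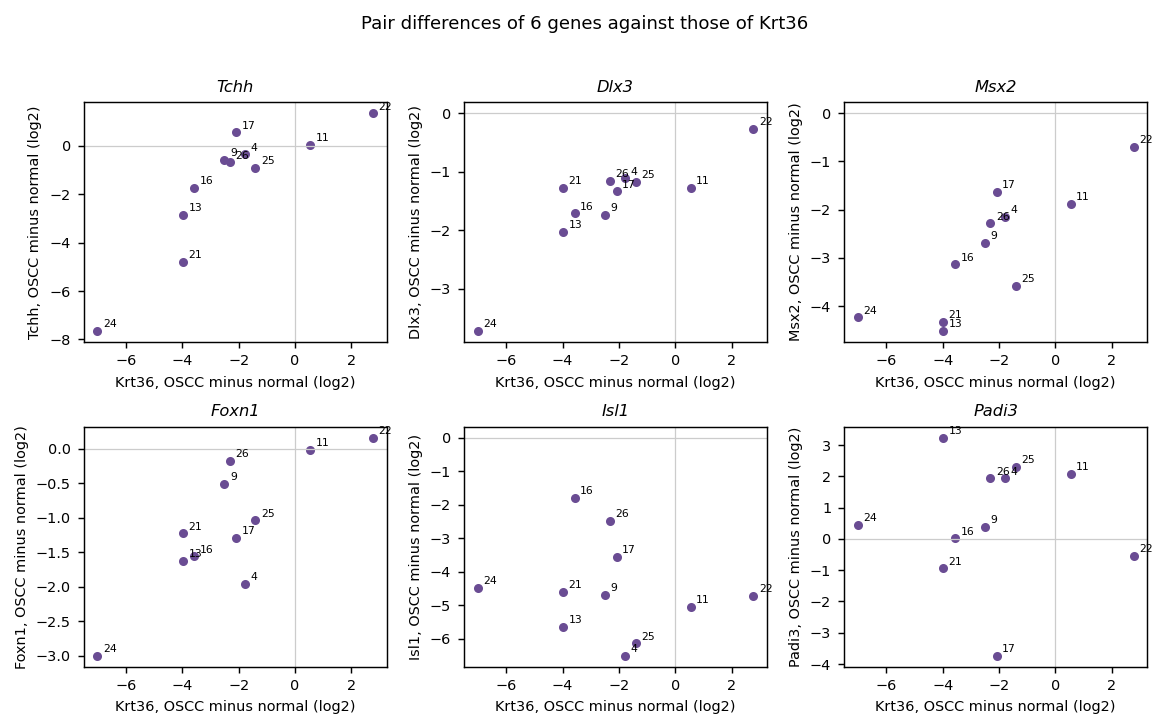
Each point is 1 rat, labelled with its animal number, with the OSCC minus normal difference of Krt36 (log2) on the horizontal axis and that of another gene (log2) on the vertical axis. Tchh, Dlx3 and Foxn1 were lowest in animal 24 and highest in animal 22, as Krt36 was, Msx2 was lowest in animal 13 and highest in animal 22, and Isl1 and Padi3 show no such order. The OSCC signals of Tchh and Foxn1 in animal 24 and of Msx2 in animal 13 were at background, so the sizes of these differences are not measured.

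The pair difference of Krt36 in animal 24, -7.02, lay apart from the others by more than 30% of their range, so relations were computed over the other 10 pairs. Pearson's r with Krt36 was 0.81 for Dlx3 (Spearman's rho 0.71), 0.80 for Msx2 (rho 0.76) and 0.77 for Tchh (rho 0.82). It was 0.70 for Foxn1 (rho 0.53), 0.43 for Vsig8 (rho 0.41), -0.04 for Padi3 (rho 0.10) and -0.21 for Isl1 (rho -0.41). Hoxc13, at background on every array, had r 0.68 (rho 0.26), but with animal 24 included it was -0.12. Dsg4, at background in OSCC, had r 0.64 (rho 0.28), and 0.38 with animal 24. Over the 19227 genes compared the median r was 0.03.

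By a permutation test with 100000 resamples, 5 of the 9 genes had an unadjusted p below 0.05 for r (Msx2 0.00334, Dlx3 0.00525, Tchh 0.0125, Foxn1 0.0201 and Hoxc13 0.031, the last with a sign that turns when animal 24 is included), and 2.05% of all genes did. After adjustment over all 19227 genes 0 passed, and the adjusted p of each of the 9 genes was 1.00. Without the pairs of animals 11 and 22, the 2 farthest from the Krt36 median, r stayed at 0.81 for Tchh, 0.68 for Msx2 and 0.65 for Dlx3. It dropped to 0.21 for Foxn1 and turned to -0.37 for Hoxc13 and -0.43 for Dsg4, so those 3 relations rest on these pairs. Among the 8 of these pairs that differ in scan day, r was 0.80 for Tchh, 0.82 for Msx2 and 0.83 for Dlx3. Each r given here for Msx2 includes animals 13 and 21, whose Msx2 signal in OSCC was at background, so it rests partly on sizes that are not measured.

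The 10 genes most like Krt36 by r over the same 10 pairs, with a gene symbol and signal on at least 11 arrays, were S100a7l2 (0.95), Krtap3-1 (0.93), Cyp2d4 (0.92), Tmprss11f (0.92), Cdhr1, Crym, Lyg1 and Krt76 (all 0.90), Krt24 (0.88) and LOC691932 (0.87). None of these passed adjustment. With animal 24 included r was -0.01 for Cyp2d4 and 0.53 for Crym, and among the rest it ran from 0.72 for S100a7l2 to 0.91 for Cdhr1. Krtap3-1 encodes a hair keratin-associated protein, and Krt24 and Krt76 are epithelial keratins. None of the 9 genes was among these 10, and the highest of the 9 in rank was Dlx3, at place 34 of 19227.

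In the normal pieces alone, Tchh and Dsg4 followed Krt36 closely. Tchh had r 0.94 with the Krt36 level (rho 0.91, permutation p = 2e-05, adjusted p = 0.00653) over 11 pieces, and Dsg4, above background in 8 of these pieces, had r 0.94 (rho 0.95, permutation p = 4e-05, adjusted p = 0.00951). Both values stayed high without animals 9 and 22, at 0.90 for Tchh and 0.91 for Dsg4. The other 7 genes did not pass adjustment, with r from -0.41 for Isl1 to 0.78 for Vsig8. Of 19253 genes 2.59% passed, so 2 of 9 is to be read against that share.

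The normal arrays lay on 3 slides with at most 4 arrays each, too few for a value within a slide, and with slide means removed r was 0.94 for Tchh and 0.96 for Dsg4. Without animals 21, 22 and 24 neither passed adjustment, at r 0.93 for Tchh and 0.78 for Dsg4 over the pieces left, and after normexp correction Dsg4 did not (r 0.85, adjusted p = 0.105). In the OSCC pieces, again without animal 24, r with Krt36 was 0.94 for Tchh (permutation p = 0.00066) and 0.90 for Msx2 (permutation p = 0.00018), and 0 of the 9 genes passed adjustment over 19242 genes. Without animals 13 and 21 these were 0.58 and 0.81, so the value for Tchh in OSCC rests on those pieces.

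**Figure D4:**
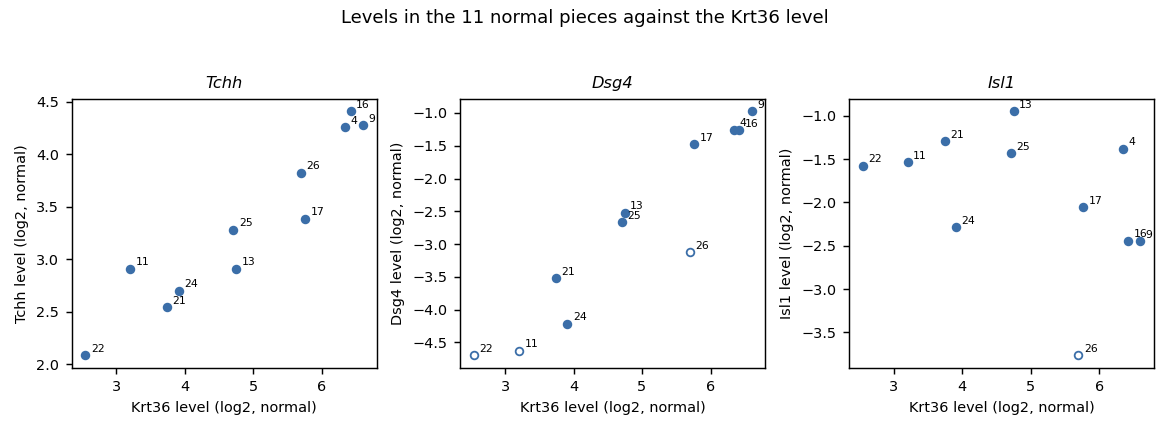
Points are the 11 normal pieces, labelled with animal numbers, with the Krt36 level (log2) on the horizontal axis and the level of Tchh, Dsg4 or Isl1 (log2) on the vertical axis; open points were not well above background. Tchh and Dsg4 rise with Krt36 (r 0.94 each), and Isl1 does not (r -0.41).

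The sequences before the Tchh, Vsig8 and Krt36 genes are shown because the relation with Krt36 over the normal pieces passed adjustment for Tchh and did not for Vsig8. Each is the 250 bases before the gene start in RefSeq on assembly GRCr8, 5′ to 3′ on the gene's strand. The regions are chr2:181786859-181787108 (plus strand) for Tchh, chr13:87555283-87555532 (plus strand) for Vsig8 and chr10:85540404-85540653 (minus strand) for Krt36. Capitals mark TATAA, the core of a TATA box, and TAATT, the core that homeodomain factors such as Msx, Dlx and LIM proteins recognise, on either strand.
Tchh: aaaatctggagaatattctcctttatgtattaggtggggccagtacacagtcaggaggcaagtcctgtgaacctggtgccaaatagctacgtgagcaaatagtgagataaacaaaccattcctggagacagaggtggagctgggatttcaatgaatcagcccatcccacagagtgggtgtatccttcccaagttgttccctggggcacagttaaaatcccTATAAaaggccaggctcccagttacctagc
Vsig8: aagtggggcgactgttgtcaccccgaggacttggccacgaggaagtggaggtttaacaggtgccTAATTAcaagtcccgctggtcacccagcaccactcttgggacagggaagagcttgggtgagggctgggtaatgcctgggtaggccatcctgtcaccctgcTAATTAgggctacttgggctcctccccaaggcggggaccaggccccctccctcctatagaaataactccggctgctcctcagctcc
Krt36: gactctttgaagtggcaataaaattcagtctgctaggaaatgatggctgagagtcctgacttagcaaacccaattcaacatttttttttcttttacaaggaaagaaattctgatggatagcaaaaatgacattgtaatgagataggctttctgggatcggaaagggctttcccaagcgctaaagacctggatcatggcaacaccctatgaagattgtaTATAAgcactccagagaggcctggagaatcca
TATAA began at -30 in Tchh and at -32 in Krt36, counted from the gene start, and was not found in Vsig8. In Vsig8, TAATT began at -186 and at -86, each time followed by A, so that it reads on both strands. Dsg4, whose relation with Krt36 also passed adjustment, is not shown, and its window holds both TATAA and TAATT.

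Windows were given for 8 of the 10 genes (the 9 and Krt36), and Hoxc13 and Dlx3 had none. TATAA was in 3 of the 8 (Tchh, Krt36 and Dsg4) and in 24.1% of all 27457 windows of this length. TAATT was in 3 of the 8 (Vsig8, Dsg4 and Padi3) and in 26.1% of all. The Hoxc13-type motif TTTATNG was in 2 of the 8, Tchh and Krt36, and in 10.1% of all, and in Tchh it overlaps the TATA box on the opposite strand. GACGC, the core bound by Foxn1, was in 1 of the 8 (Msx2) and in 22.9% of all. A match of these letters is a description and not a binding site.

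Other transcription factor genes of the program were called in both directions, at rates close to those of all genes. Of 30 further transcription factor genes of hair and papilla, 24 were on the array, of which 2 were lower (Lef1, the Wnt effector of the hair matrix, by 2.12 and Dlx2 by 1.74), 2 were higher (Runx1 by 1.56 and Prdm1 by 1.12) and 20 were not called. Their median difference was -0.29, close to that of all probes. Lef1 was lower in 11 of 11 pairs and did not overlap between tissues (limma adjusted p = 4.64e-05), and after normexp correction its difference was -0.90 (adjusted p = 0.0616). With 1 probe for each symbol, 7.25% of genes on the array were lower and 7.47% higher, beside 8.33% each way for these 24.

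Of 27 signalling genes on the array 3 were lower and 2 higher, and the median difference was -0.41. That is 11.1% lower and 7.41% higher, near the 7.25% and 7.47% of all genes on the array. The lower ones were the ligand genes Wnt3 (difference -2.25, limma adjusted p = 0.00158) and Bmp2 (-1.04, adjusted p = 0.000857) and Gli1, the transcriptional effector and target of hedgehog signalling (-1.25, adjusted p = 0.00151). Wnt5a (1.51) and the EGF receptor ligand gene Tgfa (1.34) were higher. After normexp correction 0 of the 27 were called by limma.

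Of 25 root sheath, medulla and cuticle genes on the array 3 were lower, 6 were higher and 16 were not called, with a median difference of -0.31. These are 12% lower and 24% higher, beside 7.25% and 7.47% of all genes on the array. The lower ones were Padi1 (-1.88), Selenbp1 (-1.87) and Crym (-1.24). The deiminase gene Padi4, known from neutrophils and not from hair, had the largest rise and was at least 3.92-fold higher (adjusted p = 0.00157). Among the desmosomal cadherin genes Dsc1 (2.30), Dsc2 (1.49) and Dsg2 were called higher in OSCC, opposite to Dsg4. Dsg2 cleared background in 1 normal piece and 9 OSCC pieces, so the size of its rise is not measured. After normexp correction the Dsg2 difference was 0.32 and its call was lost (limma adjusted p = 0.743).

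The hair keratin list, which holds Krt36, had 11 of 15 genes lower, 0 higher and a median difference of -2.65. Of all genes on the array 7.25% were lower and 7.47% higher. The largest mean differences were those of Krt34 (-5.53), Krt33b (-5.04), Krt35 (-4.72) and Krt33a (-4.16). Their signal cleared background in 5, 5, 2 and 3 OSCC pieces, so these sizes and their order rest largely on background signal. After normexp correction the difference was -2.83 for Krt34 and -2.47 for Krt33b. All 4 genes stand in the study's own list of falling genes on these samples, so their direction is not independent evidence. In the pair of animal 22 the hair keratins had a median difference of 3.20, and in the other 10 pairs it was between -6.37 and -0.58.

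**Figure D5:**
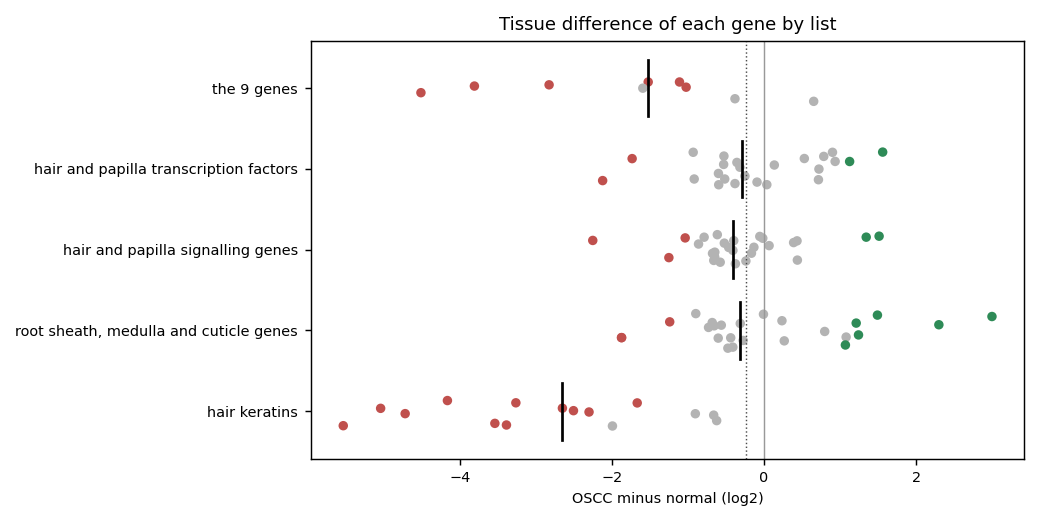
Each point is 1 gene, placed by its OSCC minus normal difference (log2), and coloured red where called lower, green where called higher and grey where not called; black bars are list medians, the dotted line is the median of all probes (-0.24) and the solid line is 0. The 9 genes (median -1.52) and the hair keratins (-2.65) lie to the left, and the other lists have medians between -0.41 and -0.29.

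Markers of other cells in the pieces also moved with tissue. Leukocyte markers were higher in 8 of 8 (median difference 2.07) and gland markers in 7 of 8 (7.16). The gland markers Bpifa1, Aqp5, Bhlha15 and Muc19 cleared background in 0 normal pieces, Vegp1 in 2, Lipf in 3, Vegp2 in 4 and Amy1a in 9. The gland median therefore rests on background signal in normal tissue, and its size is not measured. Nerve and Schwann cell markers were lower in 5 of 9 (median difference -1.43). Of all genes on the array 7.47% were higher and 7.25% lower. The mean level of the nerve list ran from -1.79 to -1.05 in normal tissue and from -3.52 to -1.57 in OSCC. Of these nerve markers 2 stood well above background on 0 arrays. Isl2, a LIM homeodomain gene of motor neurons related to Isl1, was above background on all 22 arrays and fell by 1.73 in 11 of 11 pairs without overlap (limma adjusted p = 0.000335), and the neuronal filament gene Prph fell by 1.43 (limma adjusted p = 0.00608). The basal keratinocyte markers Krt5 (-0.08) and Krt14 (0.29) and the suprabasal marker Krt13 (-0.08) were not called, while Krt15 fell by 2.54 and Itga6 was higher by 1.77 in 11 of 11 pairs. The mean of the basal list ran from 3.54 to 4.30 in normal tissue and from 1.62 to 4.74 in OSCC. Skeletal muscle markers were lower in 3 of 7 and higher in 1 (median -1.09), and endothelial and proliferation markers were called in neither direction. The part of these shifts in the levels of the 9 genes was not tested.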

How the data were processed

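Total RNA of 11 OSCC and 11 adjacent normal pieces was hybridized to one-color Agilent arrays. The authors extracted intensity with Feature Extraction 9.5.3.1, which subtracts background and spatial trends, and deposited the linear processed intensity and a table of the same signal, still linear, divided by each array's 75th percentile. Here, control spots and 9196 spots marked as outliers (0.975%) were left out, the spots of a probe were averaged on the log2 scale, then centred on the array's 75th percentile, which was 237 to 655 signal units in normal tissue and 339 to 1414 in OSCC. The number of arrays limits precision, and for dim probes signal over background does.

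limma 3.58.1 (R 4.3.3) was fitted with rat and tissue as terms, with Benjamini-Hochberg adjustment over 30367 probes. The pairing comes from both tissues of a rat, whose deviations correlated between -0.21 and 0.24 (median -0.02). The study's methods name a paired t-test, which was run as an alternative. Where all arrays of 1 tissue lack signal well above background, the fold is a lower limit, taken against each array's lowest signal that is. Correlations used permutation with 100000 resamples (Python 3.11.15, numpy 2.4.6), adjusted over 1 probe per symbol. The fit was tested on simulated data.

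Gene lists were written from general knowledge. The text names the 9 genes, Krt36, up to 4 called genes per list and direction, the 10 genes most like Krt36 and markers that define a list. The members and lists were chosen with earlier results of these data known. Promoter windows and gene names come from RefSeq (GRCr8), and probe positions from the array annotation (rn4). Quantitative PCR and methylation measurements were not analysed here.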

Additional observations from a re-analysis of the deposited data

How the results depend on the processing

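Counts of the 9 genes called lower were 5 or 6, against 6, with the methods' t-test, without the replicate block, with quantile normalization, with the 75th percentile of detected probes, with the authors' scaled values and with slide as a random block, and 7 with scaling to the array median. Without the replicate block (tissue as the only term), 6 of the 9 genes and 4227 probes were called and 2 genes differed from Krt36, and the pairing changed no other count by over 1.5 times. After normexp correction counts fell to 3 of the 9 genes, 1701 probes, 2 transcription factor, 0 signalling and 6 hair keratin genes, and 1 gene correlated with Krt36 over the normal arrays. With probes well above background on at least 11 arrays, 5 of the 9 genes were tested and 3 called lower, beside 10.4% of the 17000 probes tested, 1 differed from Krt36 and 1 correlated with it in normal tissue; Isl1, Dsg4, Hoxc13 and Padi3 were not tested there. Without animals 21, 22 and 24, 6924 probes were called, 5 genes differed from Krt36 and 0 correlated with it in normal tissue. Scan day as a term left 0 of the 9 genes, 0 that differed from Krt36, 0 in each of the 4 lists and 3 probes; at an unadjusted p, chosen after seeing the data, it gave 9578 probes, 8 transcription factor and 2 signalling genes. The 2 pairs scanned within 1 day gave 13265 probes, 1 of the 9 genes higher (Padi3), 8 transcription factor and 18 root sheath genes. The spread in that fit came from 2 pairs and was the same for each of the 9 genes. The 9 pairs that differ in scan day, also chosen after seeing the data, gave 7 hair keratins. The cause of these shifts was not tested. The scaling moved the median of all probes between -0.44 and -0.03.

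Leaving out 1 pair at a time gave 5 to 7 of the 9 genes lower, 0 to 1 higher (1 without animal 17), 3649 to 4799 probes, 2 to 5 genes that differed from Krt36 (5 without animal 22), 0 correlated over pair differences, 2 to 3 over normal arrays, 3 to 6 transcription factor, 4 to 5 signalling, 8 to 10 root sheath and 9 to 13 hair keratin genes. With the methods' t-test 2 genes differed from Krt36, not Isl1. Differences from the change of Krt36 reversed after normexp correction for Isl1 (0.92), Dsg4 (1.21) and Msx2 (0.84). The r with Krt36 over pair differences reversed after normexp for Dsg4 (-0.030), Foxn1 (-0.13) and Hoxc13 (-0.29), without animals 21, 22 and 24 for Dsg4 (-0.15) and Hoxc13 (-0.033), and with the authors' scaled values for Padi3 (0.035). With 1 pair left out it ran from -0.60 to 0.79 for Dsg4, from -0.85 to 0.81 for Hoxc13 and from -0.16 to 0.18 for Padi3. Over normal arrays it reversed without animals 21, 22 and 24 for Foxn1 (-0.036) and Hoxc13 (-0.48). The exact sign-flip test and the alternatives for r over the normal and OSCC arrays were also chosen after seeing the data.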
